A study of Arabidopsis thaliana with 28 samples.

Results

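The loci described here were at or near 0 by mean in both wild-type parents and in *ddm1*-C24. Among the 4 parental genotypes they were active only in *ddm1*-Col. Their group means over 3 replicates were at or under 0.5 RPM, a read count scaled to the library total, in WT-Col, WT-C24 and *ddm1*-C24, and at or over 5 RPM in *ddm1*-Col. Of the 28437 loci of the expression table, 156 met these limits, and 155 were kept after 9 named loci, of which 1 met the limits, had been set aside. The parental libraries therefore chose the members, and their parental values are given as a description without a test, whereas the hybrid libraries played no part in the choice.

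RNA was sequenced from whole *Arabidopsis thaliana* seedlings of 2 weeks, with 3 replicates of each of 8 genotypes. The *ddm1* groups were the hybrids *ddm1*-C24xCol and *ddm1*-ColxC24 and the parents *ddm1*-Col and *ddm1*-C24. The WT groups were WT-C24xCol, WT-ColxC24, WT-Col and WT-C24. A hybrid name gives the mother first, *ddm1*-F1 and WT-F1 stand for the 6 libraries of both directions of the cross, and both copies of DDM1 were mutant in every *ddm1* group. The methods describe several *ddm1* alleles, with homozygous plants kept for few generations, but the labels do not give the allele sequenced. The methods describe growth on plates in triplicate but do not say how libraries were drawn from the plates, so p-values measure the spread between these libraries. Library depth, for which the paper points to a supplementary table, was not used here. Values were rounded to 0.1 RPM, so a locus listed at 0 may have had a few reads.

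Most silent loci of this kind are remnants of transposable elements. DDM1 is a nucleosome remodeler that lets DNA methyltransferases and histone-modifying enzymes reach tightly packed chromatin. In its absence, methylation is lost at transposons and repeats, and many of them are transcribed. Long terminal repeat (LTR) retrotransposons, a major class of plant transposon, carry a direct repeat at each end. Transcription starts in the left repeat, and reverse transcription is primed by a host tRNA whose 3′ end pairs with a primer-binding site (PBS) just inside that repeat. Once released, such loci can keep their active state through crosses and generations, since the methylation that silenced them is slow to return or does not return.

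In the RefSeq annotation of TAIR10.1, 154 of the 155 members were found (AT1G38950 was not), and 141 of them (91.6%) were pseudogenes, against 12.5% of all loci of the table. Pseudogene is the class under which this annotation lists most transposon genes. There were 12 protein-coding members (7.79%) and 1 non-coding RNA, AT1G26558. Most members carried no description: 143 were listed as uncharacterized protein, and AT1G34070 on chromosome 1 (chr1:12402283-12403209) was the member named as a Copia-like retrotransposon polyprotein. The few other named products were those of AT1G59920, a MADS-box family protein, AT2G10260, a Ulp1 protease family protein of a kind often carried by plant transposons, AT5G29560, a caleosin-related protein, AT3G44070, a glycosyl hydrolase, and ABCI4 (AT2G07681), a cytochrome c assembly protein. The median length was 3026 bases (189 to 10101), and 52 members were 4000 to 5500 bases long. The chromosomes from 1 to 5 held 30, 32, 35, 24 and 33 members.

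Sequence features of LTR retrotransposons were searched for around every locus, since the rule used none of them. A direct repeat of at least 100 bases at 80% identity or more was found at the ends of 34 of 154 members. The search took in up to 500 bases inside each end and does not tell an element's repeats from other duplications. At AT1G59920, which has a near-identical copy in AT1G59930, the repeat ran into the locus, and AT5G29591 and AT5G29602 shared a single pair. The repeats had a median length of 260 bases and a median identity of 96.3%, and 5 pairs were identical. By a simpler criterion run on all loci, at least 50 shared words of 20 bases between the flanks, 31 members (20.1%) had such repeats, against 4.25% of all loci. A PBS word, the 12 bases complementary to the last 9 bases of a nuclear tRNA and its CCA tail, lay within 1500 bases of the annotated start on the strand of the locus in 22 members (14.3%), against 3.19% of all loci. The word for tRNA-Met, TGGTATCAGAGC, accounted for 17 of the 22 and was found at 286 of all loci. A match shows the letters and not a working element.

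In 10 members the PBS word began 0 to 6 bases after the left repeat ended, and in 7 of them it followed the repeat without a gap. These junctions show where the element's repeat meets the site at which a tRNA would prime it, and are printed for that reason. Each line gives the last 20 bases of the left repeat, any gap, the PBS in capitals and the 8 bases after it, read 5′ to 3′ on the strand of the locus in TAIR10.1.
AT1G36185 (chr1:13560055-13560094, plus strand, tRNA-Met): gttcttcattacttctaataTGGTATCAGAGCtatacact
AT1G70010 (chr1:26366791-26366830, plus strand, tRNA-Met): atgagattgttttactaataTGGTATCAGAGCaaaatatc
AT2G16000 (chr2:6954157-6954196, plus strand, tRNA-Met): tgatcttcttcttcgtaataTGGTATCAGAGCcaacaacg
AT2G40955 (chr2:17093023-17093062, plus strand, tRNA-Met): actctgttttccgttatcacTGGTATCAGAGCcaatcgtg
AT3G60170 (chr3:22232397-22232438, plus strand, tRNA-Met): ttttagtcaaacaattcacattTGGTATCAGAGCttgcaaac
AT4G07733 (chr4:4524585-4524630, minus strand, tRNA-Asp): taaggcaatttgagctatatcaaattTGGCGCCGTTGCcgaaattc
AT4G11375 (chr4:6919363-6919402, minus strand, tRNA-Met): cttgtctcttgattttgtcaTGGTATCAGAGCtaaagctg
AT4G17450 (chr4:9737499-9737538, minus strand, tRNA-Met): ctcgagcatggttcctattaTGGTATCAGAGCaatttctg
AT4G22415 (chr4:11825314-11825354, minus strand, tRNA-Thr): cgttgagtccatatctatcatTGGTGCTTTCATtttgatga
AT5G54203 (chr5:22006684-22006723, minus strand, tRNA-Met): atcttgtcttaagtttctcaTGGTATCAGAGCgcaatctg
The 8 tRNA-Met sites were the same 12 bases, while the repeat ends before them differed.

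The repeats of AT4G11375 and AT5G54203 are given whole because both pairs begin with TG and end with CA, as LTRs typically do. Both repeats of an element are copied from 1 template when it inserts, so differences between them accumulate afterwards. Capitals mark the positions at which the repeats of a pair differ.
AT4G11375 left repeat (chr4:6919383-6919598, minus strand): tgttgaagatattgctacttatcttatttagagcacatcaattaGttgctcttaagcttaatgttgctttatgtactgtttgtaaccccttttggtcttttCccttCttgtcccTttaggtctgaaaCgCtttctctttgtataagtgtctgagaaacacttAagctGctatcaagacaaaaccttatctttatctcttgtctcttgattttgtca
AT4G11375 right repeat (chr4:6914662-6914877, minus strand): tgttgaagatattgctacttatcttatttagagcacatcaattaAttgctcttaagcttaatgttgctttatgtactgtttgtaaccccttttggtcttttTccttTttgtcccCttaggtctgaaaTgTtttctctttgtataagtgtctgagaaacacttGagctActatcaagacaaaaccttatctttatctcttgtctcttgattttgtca
AT5G54203 left repeat (chr5:22006704-22006884, minus strand): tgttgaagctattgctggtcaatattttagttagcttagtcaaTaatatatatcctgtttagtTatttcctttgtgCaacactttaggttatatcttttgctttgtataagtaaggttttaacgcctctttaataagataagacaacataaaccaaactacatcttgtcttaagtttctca
AT5G54203 right repeat (chr5:22002017-22002197, minus strand): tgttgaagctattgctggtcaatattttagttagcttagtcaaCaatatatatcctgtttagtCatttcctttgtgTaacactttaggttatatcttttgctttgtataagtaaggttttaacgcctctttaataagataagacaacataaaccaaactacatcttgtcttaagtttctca
The pair of AT4G11375 differed at 8 of 216 positions and that of AT5G54203 at 3 of 181. AT2G40955 and AT3G60170 had identical pairs, of 355 and 244 bases.

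These structured members were transcribed in both hybrids. AT4G11375 had 33.4, 31.8 and 43.9 RPM in *ddm1*-C24xCol and 32.1, 31.2 and 42.8 RPM in *ddm1*-ColxC24, against 62.7, 52.9 and 74.3 RPM in *ddm1*-Col, and it was listed at 0 in *ddm1*-C24 and WT-F1. AT1G36185 had 25.6, 23.5 and 33.9 RPM in *ddm1*-C24xCol and 25.6, 24.2 and 31.3 RPM in *ddm1*-ColxC24, against 47.9, 41.2 and 62.4 RPM in *ddm1*-Col. AT5G54203 was weaker, with 3.5, 3.4 and 4.1 RPM in *ddm1*-C24xCol and 3.5, 3.0 and 4.6 RPM in *ddm1*-ColxC24, against 7.7, 6.5 and 7.1 RPM in *ddm1*-Col. In each of the 3, the hybrid libraries lay below all *ddm1*-Col libraries and the hybrids overlapped each other.

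Across all members, group means ran from 1.7 to 71.4 RPM in *ddm1*-C24xCol (median 5.53) and from 2.1 to 79.8 RPM in *ddm1*-ColxC24 (median 6.13), against 5.0 to 127.6 RPM in *ddm1*-Col (median 11.97). In *ddm1*-C24, where the rule held the means at or under 0.5 RPM, 55 members were at 0 in all 3 libraries and 100 were above 0 in at least 1. In WT-F1, 110 members were at 0 in all 6 libraries and the highest single value was 1.0 RPM. Summed over the 155 loci, *ddm1*-C24xCol had 1556.8, 1611.7 and 1693.9 RPM and *ddm1*-ColxC24 1739.4, 1689.8 and 1808.3 RPM, against 3342.5, 3057.2 and 3348.8 RPM in *ddm1*-Col. The corresponding sums were 10.3, 22.6 and 26.1 RPM in *ddm1*-C24 and 1.6 to 4.4 RPM in the WT libraries. The *ddm1*-C24 library with the lowest sum also had the most loci at 0 over the whole table, 3975 against 2501 and 2503 in the others of its group. The hybrids thus lay between the active and the silent parent, with no overlap with either. Seedlings are mixtures of cells, so fewer transcribing cells and less RNA per cell cannot be told apart.

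**Figure D1:**
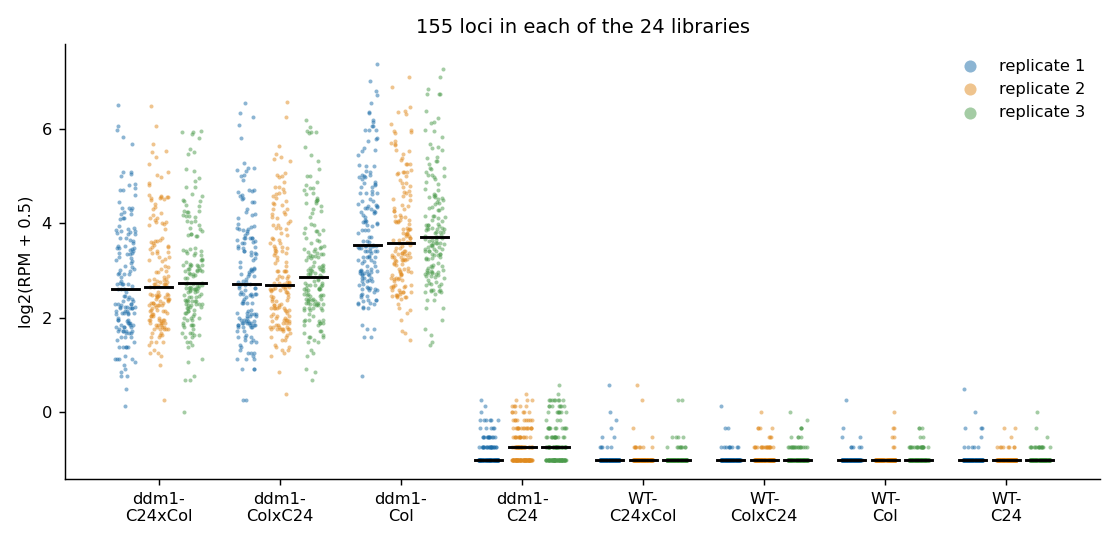
Level of each of the 155 loci in each of the 24 libraries, as log2(RPM + 0.5), with groups along the x axis, 1 point per locus and the median of each library as a black bar (a value of 0 RPM plots at the bottom). Both *ddm1* hybrids sat below *ddm1*-Col, with group medians of 5.53 and 6.13 RPM against 11.97 RPM, while *ddm1*-C24 and all WT groups lay at or near 0.

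Per length, the strongest member was AT1G42040 (chr1:15705082-15705651), a pseudogene of 570 bases with 97.3 RPM per kilobase in *ddm1*-F1 and 174 RPM per kilobase in *ddm1*-Col. The median over members was 3.20 RPM per kilobase in *ddm1*-F1 and 5.87 RPM per kilobase in *ddm1*-Col.

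Whether the hybrids differed from their WT counterparts was tested on hybrid libraries only, with limma on log2(RPM + 0.5) over 22329 loci. In *ddm1*-F1 against WT-F1, all 155 members were higher at an adjusted p under 0.05 and 0 lower, where 9.23% of all tested loci were called higher and 1.18% lower. Their differences on the log2(RPM + 0.5) scale had a median of 3.60 (2.11 to 7.23), against a median of -0.03 over all tested loci. Because most members were listed at 0 in WT-F1, these differences depend on the added 0.5 and are not fold changes. Since the members had been chosen as silent in both WT parents, their silence in WT-F1 was largely set by the choice. What the choice did not set was that every member was read in every *ddm1*-F1 library, the lowest value being 0.5 RPM.

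The same held in each direction of the cross. In *ddm1*-C24xCol against WT-C24xCol, 154 members were higher (7.89% of all tested loci were) and 0 lower (0.148% of all), with a median log2 difference of 3.57, and in *ddm1*-ColxC24 against WT-ColxC24, 154 were higher (8.06% of all) and 0 lower (0.116% of all), with a median of 3.66. Without 1 library, the calls lower over all loci numbered 15 to 28 in C24xCol (33 with all; 15 without *ddm1*-C24xCol replicate 2 and 19 without WT-C24xCol replicate 2). In ColxC24 they numbered 16 to 37 (26 with all; 16 without *ddm1*-ColxC24 replicate 1 or replicate 2). The exception in both was AT1G40115 (chr1:15179141-15179593), a pseudogene of 453 bases with 5.0, 0.7 and 0.5 RPM in *ddm1*-C24xCol and 6.9, 0.8 and 1.1 RPM in *ddm1*-ColxC24 and 0 RPM in every WT-F1 library. Its adjusted p by limma was 0.188 in *ddm1*-C24xCol and 0.0881 in *ddm1*-ColxC24, and 0.0440 and 0.00528 once the replicate number was a block. Whether the effect of *ddm1* differed between the directions was tested as an interaction by limma, which called 0 members and 0 of all loci, with 1 member and 57 loci at an unadjusted p under 0.05.

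Among the members, 2 averaged over 0.5 RPM in WT-F1. AT2G40955 (chr2:17092669-17095132), the element with the identical repeats, had 4.8, 4.5 and 6.2 RPM in *ddm1*-C24xCol, against 1.0, 1.0 and 0.7 RPM in WT-C24xCol. In the other direction it had 4.9, 6.2 and 5.2 RPM in *ddm1*-ColxC24, against 0.6, 0.3 and 0.4 RPM in WT-ColxC24. AT1G26558 (chr1:9175611-9177598), the non-coding RNA, had 4.2, 6.8 and 5.5 RPM in *ddm1*-C24xCol, against 0.4, 0.7 and 0.7 RPM in WT-C24xCol. Its *ddm1*-ColxC24 libraries had 4.0, 6.7 and 7.2 RPM, against 0.3, 0.5 and 0.5 RPM in WT-ColxC24. For both loci, the *ddm1* and WT hybrids did not overlap.

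A hybrid carries a single Col copy of each locus, so 0.5 of the *ddm1*-Col level is what that copy would give if it kept its parental output and the C24 copy gave none. This value, the mean RPM in *ddm1*-Col times 0.5, is called the single-copy level. The ratio of the *ddm1*-F1 mean to it had a median of 1.02 over the 155 members, with quartiles of 0.925 and 1.104 and a range of 0.661 to 1.75. It lay between 0.8 and 1.25 in 134 members (86.5%), below in 8 and above in 13. The median was 0.990 for *ddm1*-C24xCol and 1.04 for *ddm1*-ColxC24, and in single hybrid libraries it ran from 0.888 to 1.12 (SD 0.0865, n = 6). Against the libraries of *ddm1*-Col halved, the *ddm1*-F1 libraries overlapped in 154 members. No test was made of this ratio, since the *ddm1*-Col libraries in it chose the members. In 93 members all 6 hybrid libraries lay below all 3 *ddm1*-Col libraries (3.05% of all tested loci did), a count that the choice of loci high in *ddm1*-Col favours.

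**Figure D2:**
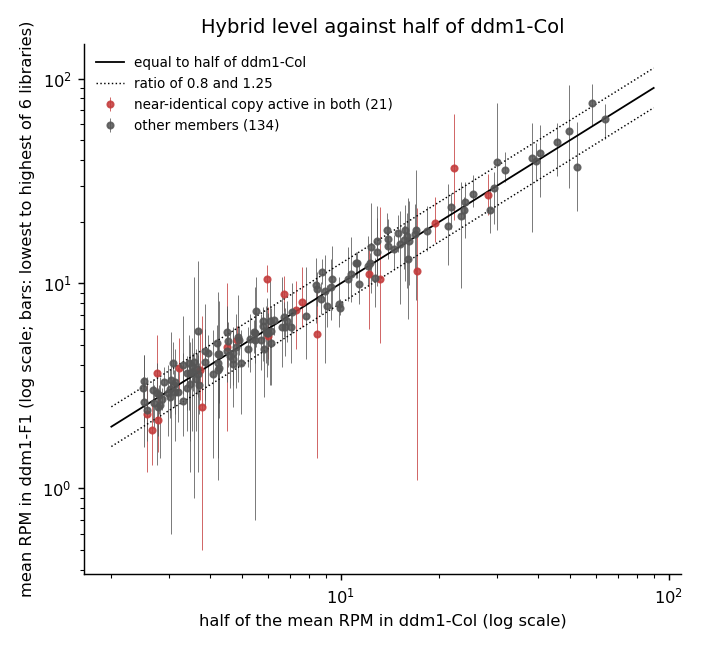
Mean RPM in *ddm1*-F1 (y axis, log scale, bars from the lowest to the highest of 6 libraries) against the single-copy level, 0.5 of the mean RPM in *ddm1*-Col (x axis, log scale) for the 155 loci, with the line of equality and dotted lines at ratios of 0.8 and 1.25. Of the members, 134 lie between the dotted lines, and the 21 with a near-identical copy active in both *ddm1* parents (red) are spread more widely.

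The 10 members with the highest mean in *ddm1*-Col held 27.7% of the summed *ddm1*-Col level. AT2G10250 (chr2:3920936-3925848) had 50.5, 66.0 and 61.1 RPM in *ddm1*-C24xCol and 55.6, 75.2 and 72.7 RPM in *ddm1*-ColxC24, against 110.9, 136.0 and 135.9 RPM in *ddm1*-Col. This pseudogene of 4913 bases, the highest of all in *ddm1*-Col, had a ratio of 0.996 ± 0.151 (SD over 6 hybrid libraries). AT1G43930 (chr1:16661000-16664004) had 31.6, 37.7 and 44.9 RPM in *ddm1*-C24xCol and 34.3, 39.6 and 48.4 RPM in *ddm1*-ColxC24, against 72.7, 82.0 and 82.3 RPM in *ddm1*-Col, a ratio of 0.998 ± 0.161. For AT1G40075 (chr1:14892436-14896886) the values were 33.5, 50.8 and 60.9 RPM in *ddm1*-C24xCol and 38.0, 49.4 and 60.3 RPM in *ddm1*-ColxC24, against 80.5, 87.0 and 106.5 RPM in *ddm1*-Col. In all 3 loci the hybrid libraries overlapped the halved *ddm1*-Col libraries.

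Several of the 10 swung widely between replicate numbers. In the 3 given next, the same replicate number was highest in each group that transcribed them. AT1G42040 had 89.8, 41.6 and 29.2 RPM in *ddm1*-C24xCol and 92.7, 40.4 and 39.2 RPM in *ddm1*-ColxC24, against 165.3, 62.5 and 69.9 RPM in *ddm1*-Col. Replicate 1 was the high library in each of these groups. AT4G15590 (chr4:8900245-8907255), the longest of the 10 at 7011 bases, went the other way, with 19.6, 45.5 and 60.5 RPM in *ddm1*-C24xCol and 17.8, 42.0 and 60.3 RPM in *ddm1*-ColxC24, against 36.3, 79.4 and 114.4 RPM in *ddm1*-Col. AT3G28915 (chr3:10917551-10922630) followed the same order, with 26.5, 44.7 and 55.4 RPM in *ddm1*-C24xCol and 29.8, 43.6 and 59.3 RPM in *ddm1*-ColxC24, against 55.5, 81.8 and 106.2 RPM in *ddm1*-Col. The swing was shared by the parent and the hybrids, so a ratio of same-numbered libraries varied less than one against the mean, with a median SD over 6 values of 0.141 against 0.244.

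The neighbours AT3G42716 (chr3:14799890-14801814) and AT3G42719 (chr3:14803536-14804201) stood above the single-copy level. AT3G42716 had 65.9, 89.3 and 58.9 RPM in *ddm1*-C24xCol and 80.4, 93.8 and 65.3 RPM in *ddm1*-ColxC24, against 127.8, 116.7 and 106.3 RPM in *ddm1*-Col, a ratio of 1.29 ± 0.244. AT3G42719 had 55.9, 30.9 and 18.3 RPM in *ddm1*-C24xCol and 75.7, 32.1 and 20.9 RPM in *ddm1*-ColxC24, against 104.5, 40.0 and 35.2 RPM in *ddm1*-Col, a ratio of 1.30 ± 0.747. In both pseudogenes every hybrid library exceeded the halved *ddm1*-Col library of the same number.

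**Figure D3:**
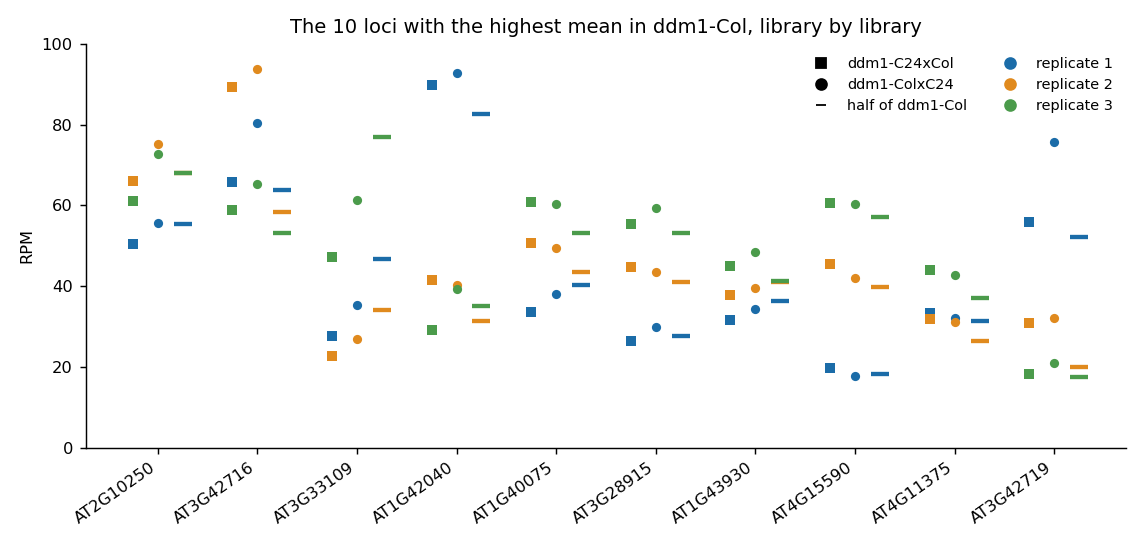
RPM (y axis) of the 10 loci with the highest mean in *ddm1*-Col, for each *ddm1*-C24xCol library (squares), each *ddm1*-ColxC24 library (circles) and each *ddm1*-Col library times 0.5 (bars), coloured by replicate number. In AT1G42040 the same colour is highest in each group, where replicate 1 had 89.8 RPM, 92.7 RPM and, before halving, 165.3 RPM.

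With same-numbered libraries set against each other, all 6 hybrid values exceeded the halved *ddm1*-Col value in 23 members and fell short of it in 13, and lay on both sides or at it in 119. Only 2 members were over 1.25 in all 6 and only 2 under 0.8. AT5G32306 (chr5:11941158-11943053) was the furthest above, with 10.6, 10.4 and 10.1 RPM in *ddm1*-C24xCol and 12.3, 10.3 and 9.1 RPM in *ddm1*-ColxC24, against 13.3, 10.1 and 12.5 RPM in *ddm1*-Col. Its ratio was 1.75 ± 0.174, and it was the single member whose hybrid libraries all lay above the halved *ddm1*-Col libraries, that is, near the full level of *ddm1*-Col. AT5G32515 (chr5:12140385-12140969) had 62.6, 22.9 and 20.4 RPM in *ddm1*-C24xCol and 67.0, 21.8 and 24.3 RPM in *ddm1*-ColxC24, against 80.8, 23.8 and 28.8 RPM in *ddm1*-Col, and matched ratios of 1.42 to 1.92.

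On the low side stood AT3G33109 (chr3:13874589-13876252), with 27.6, 22.7 and 47.3 RPM in *ddm1*-C24xCol and 35.3, 26.8 and 61.3 RPM in *ddm1*-ColxC24, against 93.4, 68.3 and 153.9 RPM in *ddm1*-Col. Its matched ratios ran from 0.591 to 0.797. AT1G59920 (chr1:22059424-22059842), annotated as a MADS-box family protein, had 17.7, 11.5 and 1.1 RPM in *ddm1*-C24xCol and 23.3, 14.4 and 1.3 RPM in *ddm1*-ColxC24, against 62.0, 37.4 and 3.4 RPM in *ddm1*-Col, with matched ratios of 0.571 to 0.770. Both were therefore below the single-copy level under every replicate number, although their raw values ranged widely. AT1G59920 has a near-identical copy, so its reads cannot be assigned with certainty.

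The other extremes were lower in level or wider in spread. AT5G28937 (chr5:10981814-10984144) had a ratio of 1.58 ± 1.21, AT3G47310 (chr3:17430152-17432359) 1.33 ± 0.376 and AT5G29602 (chr5:11273908-11274447) 1.33 ± 0.347. At the low end were AT1G40115 with 0.661 ± 0.726, AT4G07526 (chr4:4358652-4360161), a protein-coding locus, with 0.665 ± 0.408, and AT5G44415 (chr5:17893946-17896375) with 0.725 ± 0.162. ABCI4 (chr2:3287529-3292366), the one protein-coding member with a gene symbol, had 5.3, 4.2 and 3.6 RPM in *ddm1*-C24xCol and 5.2, 4.7 and 4.4 RPM in *ddm1*-ColxC24, against 11.0, 9.7 and 7.4 RPM in *ddm1*-Col, a ratio of 0.975 ± 0.137.

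Reads of near-identical copies cannot be assigned with certainty, and the handling of reads that map to several places is not given in the sources used here. Of 154 members, 120 had at least 90% of their 90-base windows present once in the reference, and 13 had under 50%. ABCI4, AT2G07674 and AT2G07685 lie in a part of chromosome 2 that copies mitochondrial DNA, with 92.4%, 89.8% and 100% of their windows also in the mitochondrial genome, so their values are uncertain. A copy of at least 90% identity over at least 80% of the length was found for 21 members among the 579 loci that met the same limits in both *ddm1* parents. Of these 21, 9 (42.9%) lay outside ratios of 0.8 to 1.25, against 12 of 133 members (9.02%) without such a copy. By unique windows the shares were closer, with 7 of 34 members under 90% (20.6%) outside, against 14 of 120 at 90% or more (11.7%). AT1G40115, AT4G07526 and AT3G31375, which lay outside and had such a copy, had 98.7% to 100% unique windows. AT5G32306 had 10 such copies and only 16.0% unique windows, and AT5G32515 had 7 copies. AT1G59920 had 1 copy, AT1G59930 at 98.8% identity, and 36.4% unique windows. These copies were also read in *ddm1*-C24, and their part in the ratios was not tested. AT3G33109, with 100% unique windows, had none. Among themselves 10 members had a near-identical partner, from 91.9% identity (AT2G07395 and AT5G35025) to 99.9% (AT1G36590 and AT3G11970). Not all of their reads can be assigned with certainty either, although AT5G32515 and its partner AT5G32517 had 76.4% and 58.1% unique windows.

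The direction of the cross asks whether it mattered which parent gave the Col copy. In *ddm1*-C24xCol against *ddm1*-ColxC24, limma called 0 members and 0 of all 22329 loci (0%), with 0 members and 90 loci at an unadjusted p under 0.05. By mean, 106 members were lower in *ddm1*-C24xCol, 46 were higher and 3 were equal, and the median log2 difference was -0.08, against 0.01 over all tested loci. The counts by mean were not made over all loci. With a block for the replicate number, 4 members were called, all lower, beside 208 of all loci. AT3G29783 had 4.4, 3.4 and 1.1 RPM in *ddm1*-C24xCol, against 9.1, 6.2 and 3.1 RPM in *ddm1*-ColxC24 (log2 difference -0.97, limma adjusted p 0.00747 with the block and 1 without). AT2G12630 had 17.7, 18.1 and 22.1 RPM in *ddm1*-C24xCol, against 25.5, 24.8 and 28.6 RPM in *ddm1*-ColxC24 (log2 difference -0.44, limma adjusted p 0.0227 with the block and 1 without).

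AT5G28937 and AT1G38950 were the other members called with the block. AT5G28937 had 3.3, 9.0 and 1.2 RPM in *ddm1*-C24xCol, against 6.1, 12.9 and 2.5 RPM in *ddm1*-ColxC24 (log2 difference -0.70, limma adjusted p 0.0306 with the block and 1 without). The *ddm1*-Col libraries of this locus had 6.5, 13.4 and 2.2 RPM, so its matched ratios were 1.02 to 1.34 in *ddm1*-C24xCol and 1.88 to 2.27 in *ddm1*-ColxC24. AT1G38950 had 19.5, 10 and 9.0 RPM in *ddm1*-C24xCol, against 24.8, 13.4 and 13.9 RPM in *ddm1*-ColxC24 (log2 difference -0.45, limma adjusted p 0.0463 with the block and 1 without). Each of the 4 was lower in *ddm1*-C24xCol under all 3 numbers, as were 48 members in all, whereas 19 were higher under all 3. These counts were not made over all loci, so no effect of the direction on the members is read from them. Seed transcripts also differed between the directions of the cross, in *ddm1* and in WT. All 3 of the seed markers CRA1, CRU3 and M17 were detected, and their summed level was 31.4 to 156.3 RPM in *ddm1*-C24xCol and 1.0 to 3.2 RPM in *ddm1*-ColxC24. It was 132.5 to 611 RPM in WT-C24xCol and 2.7 to 137.5 RPM in WT-ColxC24. In the *ddm1* parents it was 133 to 370.3 RPM in *ddm1*-C24 and 2.8 to 49.4 RPM in *ddm1*-Col. The part of seed transcripts in the differences between the *ddm1* hybrids was not tested.

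**Figure D4:**
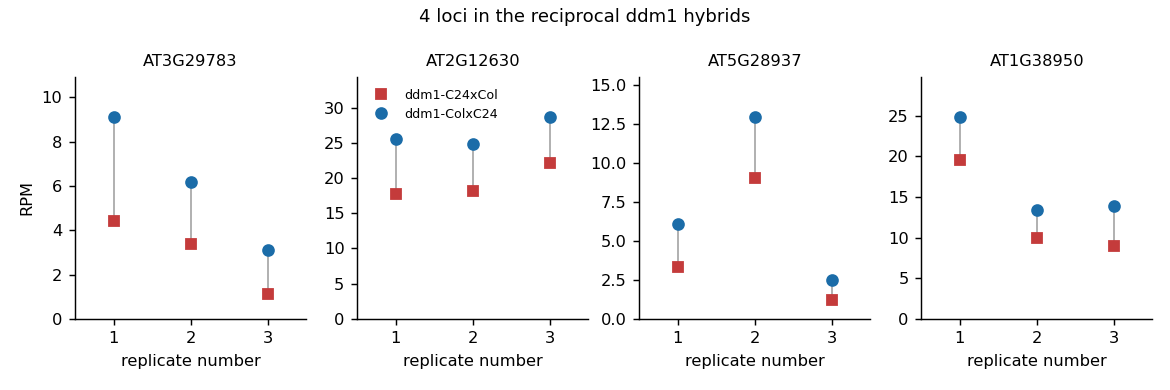
RPM (y axis) of the 4 loci called lower in *ddm1*-C24xCol (red squares) than in *ddm1*-ColxC24 (blue circles) with a block for the replicate number, by replicate number (x axis), with grey lines joining same-numbered libraries. The square is below the circle in all 12 pairs, while 0 loci were called without the block.

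The members were set beside the loci that met the same limits in other combinations. Against the mid-parent value (MPV), the mean of *ddm1*-Col and *ddm1*-C24, *ddm1*-F1 had a median ratio of 1.01 in the 155 members and 133 (85.8%) lay between 0.8 and 1.25. In the 579 loci active in both *ddm1* parents the median was 0.961 and 71.7% lay in that range. In the 61 loci active in *ddm1*-C24 only, the median was 0.406 and 27.9% lay in that range, with 40 below it. The mirror set was thus well below its mid-parent level in most loci, whereas the Col set was not. These sets were chosen on the parental values that form the MPV, so the differences between them were not tested.

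**Figure D5:**
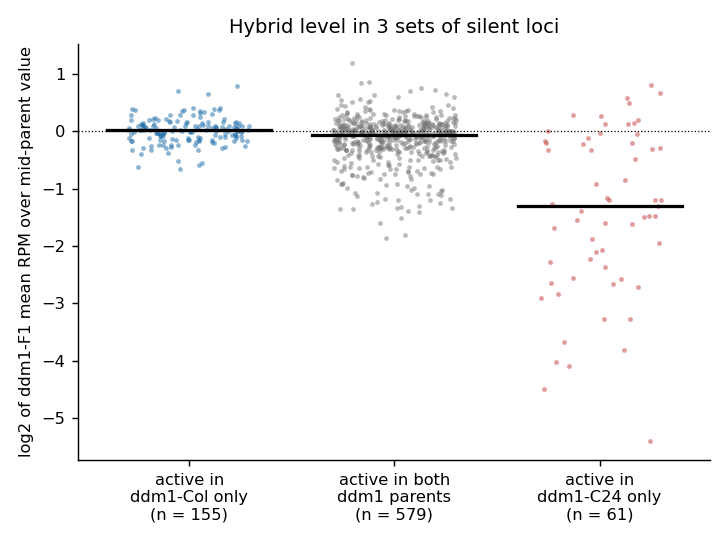
Log2 of the *ddm1*-F1 mean over the MPV (y axis) for loci silent in both WT parents and active in *ddm1*-Col only, in both *ddm1* parents or in *ddm1*-C24 only (1 point per locus, black bars are medians). On the linear scale the medians were 1.01, 0.961 and 0.406.

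In position, 77 of 154 members (50%) had a neighbourhood of 500000 bases on each side in which at least 50% of the loci were pseudogenes. That share was 69.2% in the loci active in both, 71.7% in the C24 set and 8.59% of all loci. A PBS word was found in 9.01% of the loci active in both and 16.7% of the C24 set, against 14.3% of the members. Flanking repeats by shared 20-base words were found in 12.1% and 26.7% of these sets, against 20.1% of the members. Pseudogenes made up 93.4% of the loci active in both and 80% of the C24 set, against 91.6% of the members. Neighbouring members at most 10000 bases apart formed 16 runs with 35 members, the largest being AT3G42353, AT3G42356, AT3G42360 and AT3G42383 (chr3:14497056-14508029), with ratios of 0.826 to 0.935. The run of AT1G34070, AT1G34080 and AT1G34090 (chr1:12402283-12409879) had ratios of 1.18 to 1.32. Some members overlap another locus, and strandedness of the counting is not given in the sources used here, so the values of AT3G60170, AT4G22415 and AT4G11375, which overlap another annotated locus along their whole length, are uncertain.

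The limit of 5 RPM in *ddm1*-Col falls in a continuous range of levels. Just inside were AT3G33160 at 5.0 RPM and AT3G43147 at 5.03 RPM, and just outside AT2G04000 at 4.97 RPM and AT5G29720 at 4.93 RPM. The means of AT2G04000 were 2.20 RPM in *ddm1*-C24xCol and 1.87 RPM in *ddm1*-ColxC24, and those of AT5G29720 were 3.07 RPM and 3.37 RPM in the same hybrids.

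As a check of the labels, DDM1 averaged 2.3 ± 0.520 RPM in *ddm1*-Col, against 9.47 ± 3.15 RPM in WT-Col, but 11.4 ± 4.11 RPM in *ddm1*-C24, against 8.47 ± 3.44 RPM in WT-C24 (SD, n = 3 each). In the hybrids it averaged 6.2 ± 1.97 RPM in *ddm1*-C24xCol and 6.1 ± 2.29 RPM in *ddm1*-ColxC24, against 7.77 ± 3.76 RPM in WT-C24xCol and 8.33 ± 2.45 RPM in WT-ColxC24. The transcript was thus low in the mutant Col parent and not in the mutant C24 parent, and its level there does not check the label. A list of 27 genes of silencing, DNA methylation and demethylation included MET1, which maintains CG methylation, and the RNA-directed methylation genes. Of these 27, 0 were called by limma in *ddm1*-F1 against WT-F1. With the block, 2 were higher and 9 lower, at log2 differences of -0.35 to 0.24 for the whole list. The parents were not tested. Among them the demethylation gene ROS1, picked after its values were seen, had 2.8, 2.5 and 2.8 RPM in *ddm1*-C24. It had 80, 51.9 and 68 RPM in WT-C24 and 65.7, 46.3 and 55.2 RPM in *ddm1*-Col. Its part in the levels of the members was not tested. Summed leaf and root markers were at 13527.5 to 38788 RPM and 1239.1 to 2587.6 RPM. The leaf markers CAB1 and LHCB2.1 were lowest in replicate 3 of every group, whereas RBCS1A was not. In WT-Col, CAB1 had 16899.2, 10791 and 2024.5 RPM and RBCS1A had 15127.3, 10368 and 13658.4 RPM. For *ddm1*-C24, replicate 2 was low too, with 13588.4, 2752.2 and 2512.9 RPM of CAB1. The C24 genome was not analysed here, and all reads were aligned to the Col reference, so a C24 copy that stayed silent and one that is missing or diverged cannot be told apart.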

How the data were processed

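The authors trimmed the reads, mapped them with TopHat2 to TAIR10, summarized them by gene in HTSeq-count and deposited RPM, the count scaled to the library total. Versions are not given in the sources used here. Columns summed to 999819.3 to 1000187.1, 0 columns belonged to other samples, all values (100%) were multiples of 0.1, and 2113 to 6076 loci were at 0 per library. Counts were therefore not recovered and the edgeR test of the methods was not used. The 4 bisulfite samples were not analysed.

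The members and lists were chosen with earlier results of these data known. Loci with at least 1 RPM in at least 3 of 24 libraries (22329 kept, 6108 left out, all 155 members kept) were tested on log2(RPM + 0.5) with limma 3.58.1 (trend, R 4.3.3), two-sided, with Benjamini-Hochberg adjustment over all tested loci and a threshold of 0.05, each comparison on its own hybrid libraries. On simulated libraries the code found 100% of loci changed 4-fold or 8-fold. That run checks the code and does not measure how many such loci would be found in the real libraries. In these, AT1G40115 was not called without the block in *ddm1*-C24xCol against WT-C24xCol (log2 difference 1.91). It was not called in *ddm1*-ColxC24 against WT-ColxC24 either (2.31).

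Same-numbered libraries mostly deviated together from their group means (mean r 0.757, smallest 0.159, 84 pairs). Others mostly did not (mean r -0.36, 168 pairs), but their largest r was 0.731. The deviations of the 3 libraries of a group sum to 0, which pulls the mean r of different numbers down. Within the 12 hybrid libraries the smallest same-number r was 0.657 and the largest different-number r was 0.0248. The numbers come from the labels, and the block is given where it changes a call.

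Members were named for the 10 highest *ddm1*-Col means, the 5 highest and 5 lowest ratios, a gene symbol, or a place next to the 5 RPM limit. Others named were singled out after their values were seen. Annotation and sequences are from RefSeq TAIR10.1, whose nuclear chromosomes are those of TAIR10. Repeats were aligned with blastn 2.17.0. Alternatives were pseudocounts of 0.1 and 1, other filters, median-ratio rescaling, the replicate block, a joint fit, each library left out, and other forms of the ratio.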

Additional observations from a re-analysis of the deposited data

How the results depend on the processing

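In *ddm1*-F1 against WT-F1, 155 members were called higher under every alternative run, each library left out included. In the single directions the counts without 1 library were 150 to 153 for C24xCol and 149 to 154 for ColxC24, and under the other alternatives 151 to 155 for both. Where the filter was applied within a comparison, 152 members were tested and all were called. In *ddm1*-C24xCol against *ddm1*-ColxC24, 4 members were called lower with the replicate block and 5 with the block and rescaling, AT3G33109 being the addition (log2 difference -0.33, limma adjusted p 0.0366), against 0 under the other alternatives. The block changed no other member's call than those given with the results.

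The median ratio to the single-copy level was 0.986 to 1.08 without 1 library. It was 1.01 with same-numbered libraries, 1.02 for 89 members over 10 RPM, 1.02 for 108 members whose libraries all met the limits and, chosen after seeing the data, 1.02 for 120 members with unique sequence.

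Counts over all loci moved more. Loci called lower in *ddm1*-F1 numbered 263, 2569 with the block and 1617 with block and rescaling, and loci called higher 2061, 3021 and 3507. In C24xCol the lower calls were 33, 457 and 363, and 73 in the joint fit. In ColxC24 they were 26, 926 and 655, and 56 in the joint fit, while the higher calls were 1800 and, with block and rescaling, 2724. Between the *ddm1* hybrids 99 loci were higher and 109 lower with the block, and 123 and 157 with rescaling. Values under 1 RPM rest on few steps of 0.1 RPM, and as depth was not used no counting interval was set.

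Library 1 was set against library 3 in long and in short members. In the 61 members of at least 4000 bases, the median ratio of library 1 to library 3 was 0.755 in *ddm1*-C24xCol, 0.801 in *ddm1*-ColxC24 and 0.816 in *ddm1*-Col. In the 21 members under 700 bases it was 1.16, 0.947 and 1.28 in the same groups.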
